A study of Mus musculus with 6 samples.

Results

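The T cell receptor complex and the first steps of its signaling were followed through 9 genes in mouse inguinal white adipose tissue (IngWAT), namely Cd3d, Cd3e, Cd3g, Cd247, Cd4, Themis, Lck, Zap70 and Lat. The genes were chosen by name, with earlier results of these data known. Each of the 9 symbols matched a single gene among the 34745 genes in the deposited count files. RNA-seq libraries had been made from IngWAT of 3 SAKI mice and 3 WT mice, 1 library per mouse. SAKI mice carried a Slc35d3 transgene behind a loxP-stop-loxP sequence together with Cre under the adiponectin promoter, which is active in adipocytes, so the transgene itself was aimed at fat cells and not at lymphocytes. WT mice lacked Cre, and the methods describe them as carrying the Slc35d3 alleles of the same cross. All mice were males, were put on normal chow (10 kcal% fat) when 6 weeks old, and stayed on it for 10 weeks up to an age of 16 weeks. Perfusion with PBS is recorded for both groups. The comparison asked how the expression profile of this fat depot differs when adipocytes overexpress Slc35d3.

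A T cell recognizes antigen through an alpha and a beta chain that have almost no cytoplasmic tail and therefore signal through the invariant CD3 gamma, delta, epsilon and zeta chains. The kinase Lck, brought in by the co-receptors CD4 or CD8, phosphorylates these chains, Zap70 docks on them and phosphorylates the membrane adaptor Lat, and Themis tunes the process by acting on the phosphatases that oppose Lck. In the inguinal pad T cells are found both in the fat itself and in the lymph node embedded in it. Several of these genes are also used outside T cells, such as Cd247, Lck, Zap70 and Lat in NK cells, Lat in mast cells and Cd4 in some myeloid cells.

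Slc35d3, the gene that checks the labels, stood at 745 to 793 CPM (normalized counts scaled to library size with TMM factors) in SAKI mice and at 73.3 to 82.1 CPM in WT mice. Libraries held 15354161 to 18787036 counts in SAKI mice and 15539075 to 15982271 in WT mice. Of the WT libraries, WT 2 stood apart: along principal component 1, which held 47.9% of the variance, it lay at -24.4 beside the SAKI libraries at -27.8 to -21.0, while WT 1 and WT 3 were at 40.6 and 58.1. Mitochondrial genes took 13.1% to 15.9% of counts in SAKI mice, 13.8% in WT 2 and 7.31% and 8.78% in WT 1 and WT 3. Across 15400 genes tested, edgeR's quasi-likelihood test called 5 genes at an adjusted p under 0.05, which is 0.0325% of them.

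All 9 genes had higher means in SAKI mice, by 1.46-fold to 2.10-fold, and in 8 of the 9 every SAKI mouse lay above every WT mouse. No gene of the 9 passed edgeR's test over all genes (adjusted p from 0.148 to 0.298), where 3 genes, or 0.0195%, were called higher. At an unadjusted p under 0.05 edgeR had 8 of 9 higher, against 8.36% of all genes tested, and full separation upward was seen in 13% of all genes. The median log2 fold change of the 9 was 0.75, beside -0.0035 over all genes tested. Since the 9 genes were chosen with earlier results of these data known, the shares over all genes given here are no independent test. DESeq2 called 7 of the 9 higher at an adjusted p under 0.05, all but Cd3d and Zap70 (0.0764 and 0.265), against 2.01% of all genes tested. Without WT 2, edgeR called 5 of the 9 higher, Cd3g, Cd247, Cd4, Themis and Lck, against 7.41% of all genes. It called 0 of 9 with any other library left out, where 0.00637%, 0.0127% and 0.00639% of all genes were higher without SAKI 1, 2 and 3 and 0.0192% without WT 1 or WT 3. A fit with the mean of B cell markers as a covariate, described below, called 4 of the 9 higher, against 2.64% of all genes. Upper-quartile scaling (0.013% of all genes higher), RLE scaling (0.0195%) and the replicate number as a block (0.00649%) called 0 of 9. Fits to genes with a mean of 5 CPM or more (0.0255%), with low-count genes kept (0.0178%) and by limma-voom (0.026%) also called 0 of 9. So did limma on FPKM values, with 0.0483% of all genes higher after the filter and 0.0222% without it. In bulk tissue, more T cells and more of these transcripts per T cell cannot be told apart.

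**Figure D1:**
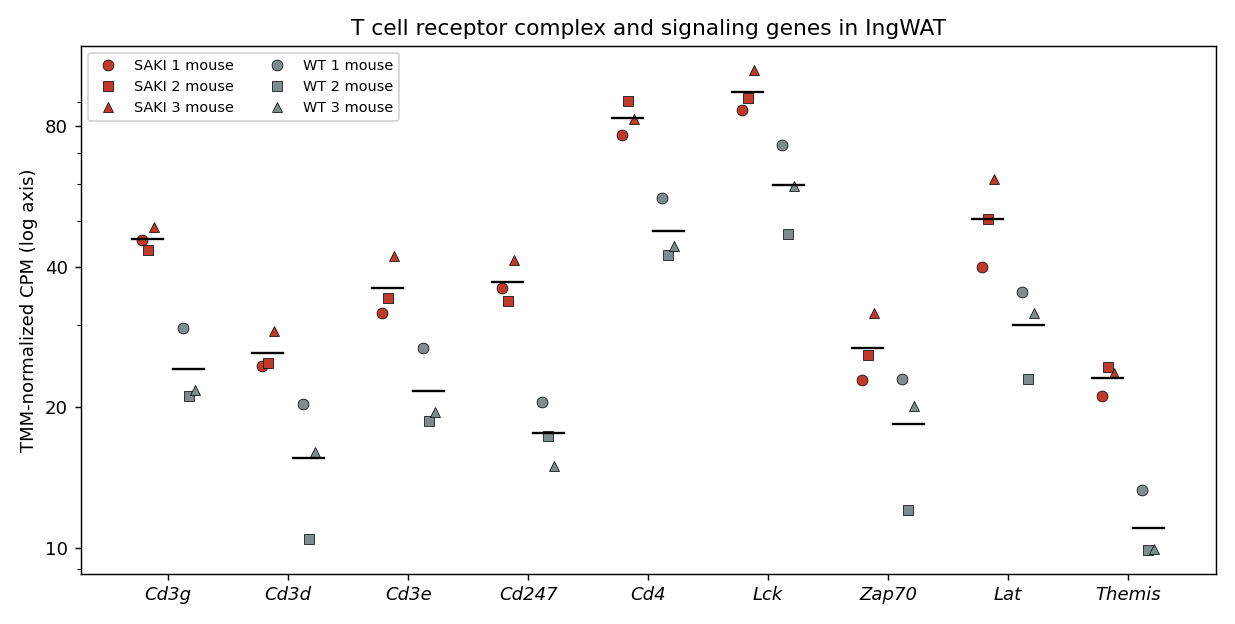
TMM-normalized CPM (log axis) of the 9 genes in IngWAT, with 1 symbol per mouse for 3 SAKI mice (red) and 3 WT mice (grey) and a bar at each group's mean. All SAKI mice lie above all WT mice for 8 genes, while for Zap70 the SAKI 1 mouse at 22.9 CPM is level with WT 1 at 22.9 CPM.

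The genes of the CD3 gamma, delta and epsilon chains lie together on chromosome 9 of GRCm38 from 44969572 to 45009590, where Cd3e, on the minus strand from 44998743, forms the far end. Cd3g runs on the minus strand from 44969572 to 44980431 and Cd3d on the plus strand from 44981793 to 44987052, so their starts face away from each other across 1361 bases. Lck is on the minus strand of chromosome 4 from 129548344 to 129573641, and Zap70 is on the plus strand of chromosome 1 from 36761798 to 36782818. The bases just upstream of the RefSeq start of these 4 genes (build GRCm38.p6) are shown, Cd3g and Cd3d as the neighbors that share an upstream region, Lck as the member with the highest CPM and Zap70 as the one whose groups overlapped. Capitals mark matches on either strand to short core motifs of factors known in lymphocytes, AGGAAG for ETS, TGTGGT for RUNX, CTTTGA for TCF/LEF and CACCTG for E-box proteins, and no match overlapped another.
Cd3g, chr9:44980432-44980681, minus strand: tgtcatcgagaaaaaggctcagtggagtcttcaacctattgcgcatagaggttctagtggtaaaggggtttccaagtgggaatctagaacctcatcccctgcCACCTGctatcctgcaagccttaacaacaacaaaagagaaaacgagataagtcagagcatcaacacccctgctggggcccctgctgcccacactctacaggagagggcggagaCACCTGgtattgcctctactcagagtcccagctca
Cd3d, chr9:44981536-44981785, plus strand: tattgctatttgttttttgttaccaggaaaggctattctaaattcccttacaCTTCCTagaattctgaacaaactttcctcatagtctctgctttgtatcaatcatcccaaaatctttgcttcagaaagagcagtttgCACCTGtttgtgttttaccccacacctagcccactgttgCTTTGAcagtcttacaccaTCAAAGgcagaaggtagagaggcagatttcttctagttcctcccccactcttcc
Lck, chr4:129573642-129573891, minus strand: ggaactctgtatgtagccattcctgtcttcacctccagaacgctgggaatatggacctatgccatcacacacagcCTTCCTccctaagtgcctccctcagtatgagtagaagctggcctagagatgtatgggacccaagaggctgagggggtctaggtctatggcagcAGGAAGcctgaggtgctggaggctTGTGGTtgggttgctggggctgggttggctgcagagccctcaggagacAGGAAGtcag
Zap70, chr1:36761548-36761797, plus strand: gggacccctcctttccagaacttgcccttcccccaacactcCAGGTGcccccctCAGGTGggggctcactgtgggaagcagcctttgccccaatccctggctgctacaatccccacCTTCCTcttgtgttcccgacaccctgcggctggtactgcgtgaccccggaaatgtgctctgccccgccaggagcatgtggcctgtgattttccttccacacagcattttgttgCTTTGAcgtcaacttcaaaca

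RefSeq promoters were matched for 8 of the 9 genes, all but Cd4. The ETS core was present in the 250 bases upstream of 6 of these 8, against 29.2% of 27025 mouse promoters of the same length. The E-box stood in 4 of 8 against 17.1%, the TCF/LEF core in 2 of 8 against 14%, and the RUNX core in 1 of 8 against 14.2%. Cd247 is counted for the ETS core and the E-box, but all 250 bases of its window are annotated as exonic, and the windows of Cd3e and Lat hold 16 and 2 exonic bases. Zap70, whose groups overlapped, and Cd3d, whose groups did not, each had matches to 3 of the 4 motifs. The window of Themis, a gene whose groups were well apart, had 0. The motifs were chosen with these sequences in view, so the shares beside the background are no test of enrichment. These matches describe letters in a window and are no evidence of binding.

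Among the CD3 gamma, delta and epsilon genes, the gamma chain gene had the largest ratio. Cd3g, which encodes the chain that carries a motif for internalizing the receptor, was at 45.6, 43.5 and 48.6 CPM in SAKI mice 1 to 3, against 29.6, 21.1 and 21.7 CPM in WT mice 1 to 3. The SAKI mice formed a narrow range well above the highest WT mouse, which was WT 1. edgeR estimated 0.93 ± 0.15 (SE) on the log2 scale (adjusted p = 0.148), and p was 0.1 in an exact two-sided permutation test of the 6 mice, which is the least that 3 against 3 allow and was found for all of the 9 genes but Zap70.

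Cd3d, the delta chain gene next to it, had a lower and more scattered level in WT mice. It was at 24.6, 24.8 and 29.2 CPM in SAKI mice, against 20.3, 10.4 and 16.0 CPM in WT mice, and WT 2 was the lowest. The estimate of 0.75 ± 0.24 (SE) on the log2 scale (adjusted p = 0.209, edgeR) became 0.53 without WT 2. Cd3e encodes the epsilon chain, which pairs with gamma and with delta in the receptor of alpha and beta chains. Its level was 31.9, 34.2 and 42.2 CPM in SAKI mice and 26.8, 18.7 and 19.6 CPM in WT mice. The groups did not overlap, and the gap between the lowest SAKI mouse and WT 1 was about as large as the SD within a group. On the log2 scale the difference was 0.73 ± 0.18 (SE), with an adjusted p = 0.17 from edgeR.

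The zeta chain gene had the largest ratio of the 9. Cd247, on the plus strand of chromosome 1 from 165788681 to 165877277, encodes the chain with the most tyrosine motifs for Zap70. It was at 36.0, 33.8 and 41.4 CPM in SAKI mice, against 20.6, 17.4 and 14.99 CPM in WT mice, a 2.10-fold ratio of means. edgeR put the difference at 1.07 ± 0.15 (SE) on the log2 scale (adjusted p = 0.148), and at 1.06 without WT 2 (adjusted p = 0.0145). In the GENCODE annotation, 56.4% of the exon bases of Cd247 are also exonic in Pou2f1, a ubiquitous transcription factor gene on the opposite strand. Whether the counting used strand is not stated, and reads of the pair cannot be told apart. Pou2f1 itself was at 49.1, 48.1 and 48.3 CPM in SAKI mice, against 31.1, 31.9 and 33.0 CPM in WT mice, or 0.60 on the log2 scale (edgeR, adjusted p = 0.148). How far reads shared with Pou2f1 contribute to the Cd247 value was not tested. Of the other 8 genes, Cd3e, Themis, Lck and Lat shared between 0.854% and 3.31% of their exon bases with a non-coding neighbor, and Cd3d, Cd3g, Cd4 and Zap70 shared none.

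Levels of different genes can be set side by side only per gene length, for which the FPKM values of the authors (fragments scaled to gene length and library size) were used. In SAKI mice, mean FPKM ran from Cd3g at 34.7 ± 2.51 and Cd3e at 25.4 ± 4.36 through Lck at 20.3 ± 2.53, Cd3d at 19.96 ± 2.39 and Cd4 at 16.9 ± 1.62 (SD, n = 3 each). Lower levels were found for Lat at 9.97 ± 2.35, Zap70 at 6.47 ± 1.24, Cd247 at 4.52 ± 0.56 and Themis at 1.70 ± 0.15 FPKM (SD, n = 3 each). This order depends on the gene lengths behind the FPKM values, which were not checked. In GENCODE, the exon bases of a gene come to 5329 for Cd247 and 11682 for Themis, against 4080 for Cd3e, 2929 for Lck and 2767 for Lat. How far length sets the low values of Cd247 and Themis was not tested. The means of the WT mice followed the same order, with Cd3g at 18.1 ± 4.48, Lck at 12.7 ± 3.31, Cd3d at 11.8 ± 4.22 and Themis at 0.81 ± 0.19 FPKM (SD, n = 3 each). Within either group Lck and Cd3d differed by less than their spread, and Cd3g lay above Cd3e in every mouse.

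**Figure D2:**
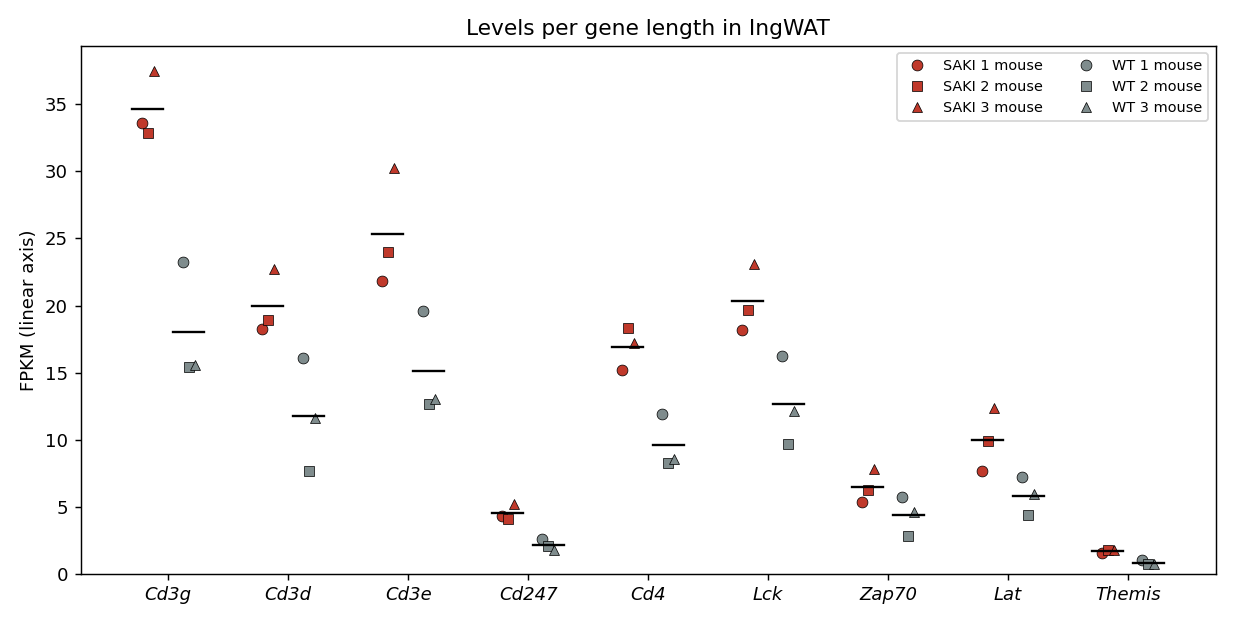
FPKM (linear axis from 0) of the 9 genes, with 1 symbol per mouse for 3 SAKI mice (red) and 3 WT mice (grey) and a bar at each group's mean. Cd3g has the highest mean level in both groups, at 34.7 FPKM in SAKI mice and 18.1 FPKM in WT mice, and Themis has the lowest. The order depends on the gene lengths behind the FPKM values, which were not checked.

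Of the summed FPKM of the 4 signaling chains, Cd3g made up 41.2% ± 1.93 in SAKI mice and 38.5% ± 1.92 in WT mice, and Cd3e 29.9% ± 1.83 in SAKI mice and 32.2% ± 1.27 in WT mice (SD, n = 3 each). Cd3d took 23.6% ± 0.17 in SAKI mice and 24.7% ± 3.89 in WT mice, and Cd247 took 5.35% ± 0.18 in SAKI mice and 4.59% ± 0.71 in WT mice (SD, n = 3 each). The sizes of these shares depend on the gene lengths behind the FPKM values. Each share overlapped between the groups. Relative to Cd3e alone, however, Cd247 stood at 1.13, 0.987 and 0.982 CPM per CPM in SAKI mice and at 0.767, 0.927 and 0.766 in WT mice, without overlap, and the reads shared with Pou2f1 bear on this ratio as well.

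Cd4, on the minus strand of chromosome 6 from 124864692 to 124888221, encodes the co-receptor of helper and regulatory T cells. It was at 76.4, 90.3 and 83.0 CPM in SAKI mice, against 56.1, 42.3 and 44.4 CPM in WT mice, a 1.75-fold ratio of means without overlap. The log2 estimate was 0.81 ± 0.14 (SE), and the adjusted p from edgeR was 0.148. The CD8 alpha chain gene, Cd8a, did not separate in the same way, at 53.8, 58.1 and 58.8 CPM in SAKI mice and 66.6, 35.1 and 48.4 CPM in WT mice, with WT 1 the highest of all. Cd4 per Cd8a was accordingly 1.42, 1.56 and 1.41 in SAKI mice, against 0.843, 1.20 and 0.917 in WT mice. Cd8b1, the CD8 beta chain gene, was at 34.7, 33.1 and 37.8 CPM in SAKI mice and 30.7, 14.98 and 21.7 CPM in WT mice, and its groups did not overlap (0.65 on the log2 scale, adjusted p = 0.243 by edgeR). Cd4 per Cd8b1 was 2.199, 2.73 and 2.19 in SAKI mice, against 1.83, 2.82 and 2.05 in WT mice, so with this chain the groups overlapped and WT 2 was the highest of all. Both ratios were picked out after the values were seen, and the difference between Cd8a and Cd8b1 was not tested.

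**Figure D3:**
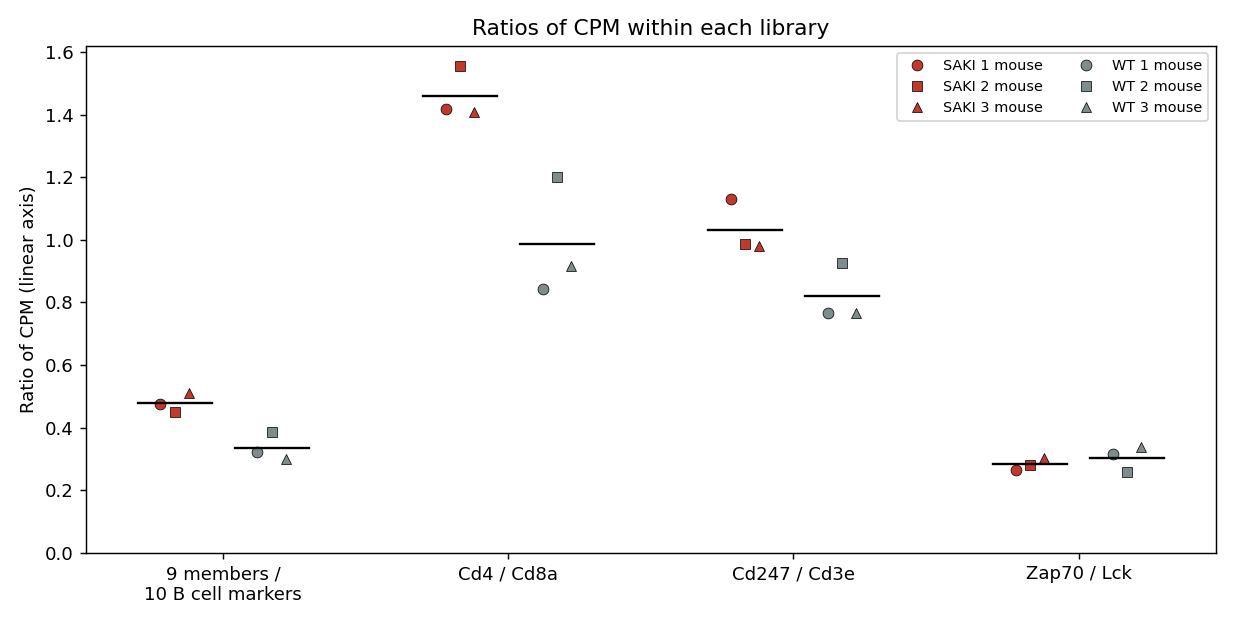
Ratios of CPM within each library (linear axis from 0), with 1 symbol per mouse for 3 SAKI mice (red) and 3 WT mice (grey) and a bar at each group's mean. The ratio of Cd4 to Cd8a is 1.41 to 1.56 in SAKI mice and 0.843 to 1.20 in WT mice, while Zap70 to Lck overlaps between the groups. Cd4 to Cd8b1, which is not drawn, also overlaps, at 2.19 to 2.73 in SAKI mice and 1.83 to 2.82 in WT mice.

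The kinases came next in the cascade and had the smallest ratios of means, 1.58-fold for Lck and 1.46-fold for Zap70. Lck, the Src family kinase that starts the signal, was at 86.7, 91.9 and 105 CPM in SAKI mice, against 72.8, 46.9 and 59.6 CPM in WT mice. This gave 0.66 ± 0.17 (SE) on the log2 scale (edgeR, adjusted p = 0.177), with WT 1 again nearest to the SAKI range. Zap70, the kinase that binds the phosphorylated chains, was at 22.9, 25.9 and 31.8 CPM in SAKI mice, against 22.9, 12.1 and 20.2 CPM in WT mice. Its difference was the smallest of the 9, at 0.55 ± 0.25 (SE) on the log2 scale (edgeR, adjusted p = 0.298). SAKI 1 lay just below WT 1, and an exact two-sided permutation test gave p = 0.2. Without WT 2 the value was 0.32 (adjusted p = 0.22 from edgeR). Zap70 per Lck was 0.282 ± 0.02 in SAKI mice and 0.304 ± 0.04 in WT mice (SD, n = 3 each), and the groups overlapped.

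Lat and Themis complete the list on the adaptor side. Lat, the transmembrane scaffold on which the signalosome assembles, is on the minus strand of chromosome 7 from 126363824 to 126369570. It was at 39.9, 50.6 and 61.6 CPM in SAKI mice, the widest range of any of these genes in that group relative to its mean, against 35.3, 23.0 and 31.8 CPM in WT mice. edgeR gave a difference of 0.75 ± 0.21 (SE) on the log2 scale, with an adjusted p = 0.188. Themis, on the plus strand of chromosome 10 from 28668360 to 28883818, is required for the selection of T cells in the thymus and persists in mature T cells. Here it was at 21.2, 24.4 and 23.7 CPM in SAKI mice, against 13.3, 9.92 and 9.95 CPM in WT mice. Both groups were tight and far apart, the ratio of means was 2.09-fold, and the log2 difference was 1.06 ± 0.16 (SE, adjusted p = 0.148 in edgeR).

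Mouse by mouse, the 9 genes varied largely in step. WT 1 was the highest WT mouse in 9 of 9 genes and WT 2 the lowest in 8, the exception being Cd247, and SAKI 3 was the highest SAKI mouse in 7. Their summed level was 385, 419 and 467 CPM in SAKI mice and 298, 202 and 238 CPM in WT mice. WT 2, which resembled the SAKI libraries on the first principal component and in mitochondrial share, was thus the WT mouse farthest from them here. Since WT 1 was the highest WT mouse in 9 of 9 genes, leaving WT 2 out could not change the 8 of 9 genes without overlap. That count is therefore no check on the role of WT 2. Over all genes tested the share separated upward was 26.3% without WT 2.

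The rest of the pathway was followed through lists of other genes, and edgeR over all genes called 0 of the 94 tested. DESeq2 called 18 of them higher and 0 lower, against 310 (2.01%) higher and 418 lower over all genes tested. With limma-voom 0 were called, against 0.026% of all genes higher. At an unadjusted p under 0.05 in edgeR, 35 were higher and 3 lower, against 1288 (8.36%) and 1539 of the 15400 genes tested. All SAKI mice lay above all WT mice in 37 (39.4%, beside 13% of all genes tested). The shares over all genes also apply to the counts of each list below. The lists too were chosen with earlier results of these data known, so these shares are no independent test. The median log2 fold change of the 94 was 0.31. List medians ran between 0.07 and 0.63, and differences between lists were not tested.

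**Figure D4:**
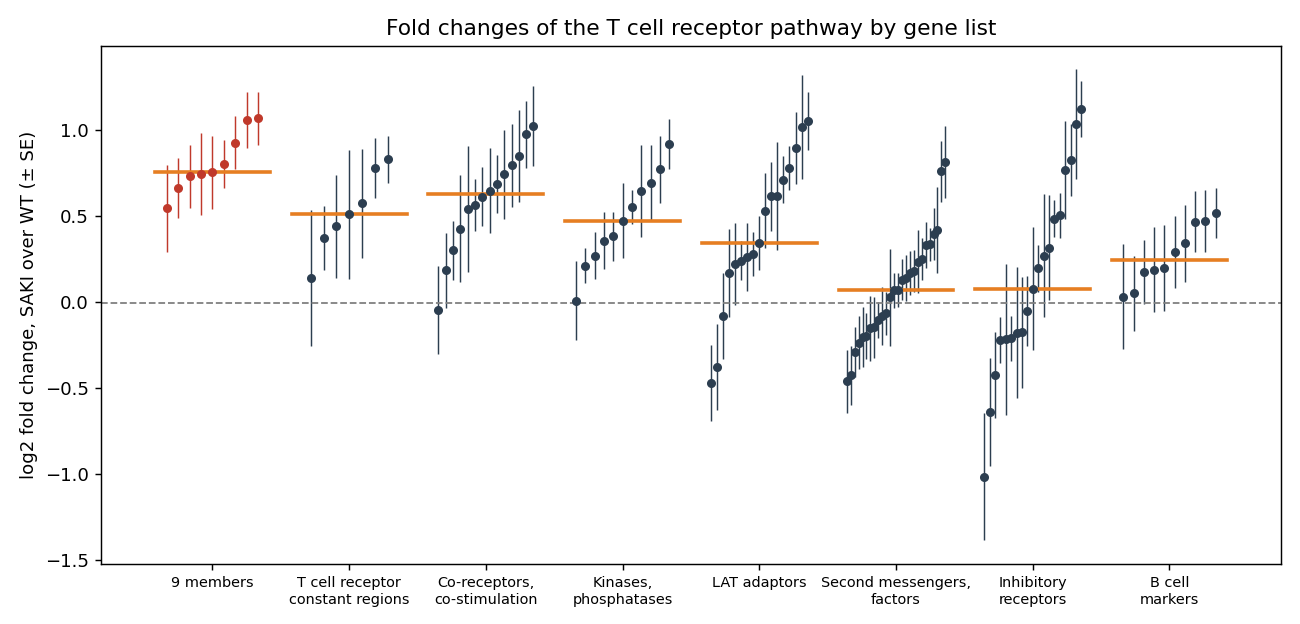
Log2 fold changes (SAKI over WT, bars are standard errors) of the 9 genes (red), of 6 other lists of the pathway and of B cell markers (dark), with 1 point per gene, an orange line at each list's median and a dashed line at the median of all genes tested. Medians lie at 0.75 for the 9 genes, 0.63 for co-receptors and co-stimulatory receptors and 0.07 for second messengers and transcription factors.

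The constant regions of the antigen-binding chains, with which CD3 assembles, had a median log2 fold change of 0.51, with all 7 above 0, 2 higher at an unadjusted p under 0.05 and none called by edgeR (2 by DESeq2). Trac, the alpha chain constant region, was at 65.0, 63.0 and 74.1 CPM in SAKI mice and 44.2, 34.6 and 34.8 CPM in WT mice (0.83 on the log2 scale, edgeR adjusted p = 0.148). Trbc2 stood at 0.78 and its near-identical partner Trbc1 at 0.37, and reads of that pair may have been split between them. Tcrg-C1, a gamma chain constant region, was at 0.57, with only 1.43 to 3.04 CPM in any mouse. Relative to Trac, the summed 9 genes were at 6.29 ± 0.37 in SAKI mice and 6.47 ± 0.56 in WT mice (SD, n = 3 each), and the groups overlapped.

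Of 14 co-receptors and co-stimulatory receptors, 13 were above 0, 9 were higher at an unadjusted p under 0.05, and edgeR called 0 and DESeq2 3. Cd28, the main co-stimulatory receptor of naive T cells, was at 34.0, 41.6 and 45.2 CPM in SAKI mice and 26.6, 14.7 and 18.2 CPM in WT mice (1.02 on the log2 scale). Cd226, an adhesion receptor, stood at 0.98, Cd2 at 0.69 and Cd27 at 0.57, all without overlap.

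Among 11 proximal kinases and phosphatases, all 11 were above 0, 6 were higher at an unadjusted p under 0.05, and edgeR called 0 and DESeq2 3. Txk, a tyrosine kinase of T cells, was at 13.3, 13.3 and 17.2 CPM in SAKI mice and 9.33, 6.81 and 9.49 CPM in WT mice (0.77 on the log2 scale), and Ubash3a, a suppressor of receptor signaling, stood at 0.69. Syk, the relative of Zap70 that serves B cells and myeloid cells, had a log2 fold change of 0.55, equal in size to that of Zap70 but with a smaller standard error of 0.10.

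The 17 adaptors that assemble with Lat were mixed, with 14 above 0 and 3 below, 7 higher at an unadjusted p under 0.05, 0 called by edgeR and 4 by DESeq2. Skap1, an adaptor for integrin activation, was at 21.9, 24.5 and 29.5 CPM in SAKI mice and 14.1, 11.4 and 11.0 CPM in WT mice (1.05 on the log2 scale). Grap2, which links Lat to SLP-76, stood at 0.90, Lcp2, the gene of SLP-76, at 0.78 and Fyb, its partner, at 0.71.

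Further down, among 26 second messengers and transcription factors, 15 were above 0 and 11 below, with a median log2 fold change of 0.07. At an unadjusted p under 0.05, 5 were higher (8.36% of all genes tested) and 2 lower. edgeR called 0 and DESeq2 2, where DESeq2 called 2.01% of all genes tested higher. The genes of smallest p were Prkcq, the T cell protein kinase C, at 0.81, Rasgrp1, which activates Ras behind Lat, at 0.76, Malt1 at 0.39 and Nfatc3 at 0.34. The 19 inhibitory receptors and negative regulators were likewise divided, with 10 above 0 and 9 below, 6 higher and 1 lower at an unadjusted p under 0.05, 0 called by edgeR and 4 by DESeq2. Sla, an adaptor that helps to remove receptor chains from the surface, had a log2 fold change of 1.13, Btla, a receptor shared with B cells, 0.83, Dgka 0.51 and Cbl 0.49.

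Most genes of T cell identity lay in the same direction. Of 15 T lineage transcription factors 12 were above 0, with 5 higher and 2 lower at an unadjusted p under 0.05, 0 called by edgeR and 2 by DESeq2. Lef1, a TCF/LEF factor of naive T cells, was at 41.9, 41.3 and 51.1 CPM in SAKI mice and 29.2, 18.2 and 20.9 CPM in WT mice, Tox stood at a log2 fold change of 0.78, Ikzf3 at 0.54 and Zbtb7b at -0.28. Among 11 genes of naive and recirculating T cells, 10 were above 0, with 6 higher at an unadjusted p under 0.05, 0 called by edgeR and 3 by DESeq2. Il7r, the receptor for the survival factor interleukin 7, was at 125, 152 and 134 CPM in SAKI mice and 63.0, 46.2 and 79.5 CPM in WT mice. Dapl1 had a log2 fold change of 0.60. Regulatory T cell genes were more divided, with 5 of 7 above 0, 0 higher and 1 lower at an unadjusted p under 0.05, 0 called by edgeR or DESeq2 and a median of 0.15. Their genes of smallest p were Il1rl1, an interleukin 33 receptor, at -0.92, Ikzf2 at 0.91, Il2ra at 0.46 and Tnfrsf18 at 0.16.

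The genes whose profile over the 6 libraries was most like the mean of the 9 were searched among 13358 genes with a mean of at least 1 CPM. Likeness was measured as the root mean square difference of log2 CPM after centering each gene, which was between 0.08 and 0.20 for the 9 genes themselves and had a median of 0.52 over the genes searched. The 10 nearest genes, at 0.06 to 0.08, were Akna, Iglc2, Rab19, Apol7e, Trbc2, Cd2, Kif21b, Sash3, Grap2 and Rasgrp1. Of these, 4 were on the lists used here, and Iglc2 is a constant region of immunoglobulin light chains, made by B cells. Akna, the nearest, was at 136, 147 and 160 CPM in SAKI mice and 109, 75.2 and 88.6 CPM in WT mice.

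Marker lists of other cell types were read in the same libraries. A list of 10 T cell markers, which holds none of the 9 genes but shares Trac, Cd2, Cd28 and others with the lists described before, had 10 above 0 and a mean log2 CPM of 5.14 ± 0.13 in SAKI mice and 4.45 ± 0.37 in WT mice (SD, n = 3 each), without overlap. B cell markers also had 10 of 10 above 0, with 3 higher at an unadjusted p under 0.05 (8.36% of all genes tested) and a median log2 fold change of 0.25. But their groups overlapped, with sums between 811 and 934 CPM in SAKI mice, against 523 to 922 CPM in WT mice. WT 2 was the lowest for B cells and for the 9 genes alike. The 9 genes per CPM of B cell markers were 0.475, 0.449 and 0.510 in SAKI mice, against 0.323, 0.386 and 0.299 in WT mice, without overlap. With the mean of the B cell markers in the edgeR model, all 9 estimates were smaller, at 0.22 to 1.02 on the log2 scale, with a median of 0.56 beside 0.75 without that term. Zap70 was then at 0.22, Cd3d at 0.45, Lck at 0.45 and Lat at 0.50. Cd3g, Cd247, Cd4 and Themis then passed (adjusted p = 0.0428, 0.042, 0.0428 and 0.0393 from edgeR), against 2.64% of all genes called higher. The B cell mean was 5.47 in WT 2 and 6.04 to 6.32 in the other libraries. In this fit, B cell content and whatever else sets WT 2 apart cannot be told apart.

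Markers of lymph node stroma and high endothelial venules, the vessels by which lymphocytes enter a node, had 4 of 5 tested above 0 and sums between 154 and 185 CPM in SAKI mice, against 105 to 112 CPM in WT mice. Glycam1, a mucin-like glycoprotein of these venules, was at 73.8, 75.5 and 87.0 CPM in SAKI mice and 18.4, 38.5 and 21.5 CPM in WT mice, which is 1.59 on the log2 scale. Chst4, a sulfotransferase of these venules, stood at 0.74 and Madcam1 at 0.84. The other markers tested, Cxcl13 and Fcamr, stood at 0.11 and -0.03, and their groups overlapped. Of the 5, edgeR called 0 and DESeq2 1. Ccl21a and Ccl19, further markers on the list, were listed at 0 counts in every library, and Ccl21a has 2 entries in the files, so reads that match copies equally may not have been counted. The part of lymph node tissue in the values of the 9 genes was not tested. The fit with the B cell markers cannot measure it, since their mean log2 CPM mainly set WT 2 apart. That mean was 5.47 in WT 2 and 6.04 to 6.32 in the other libraries.

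Macrophage markers had 6 of 6 above 0 and sums between 1080 and 1308 CPM in SAKI mice, against 384 to 1123 CPM in WT mice, and WT 2, the highest WT mouse, was within the SAKI range. WT 2 was thus the highest WT mouse for macrophage markers and the lowest for the summed 9 genes. Dendritic cell markers had 4 of 6 above 0, and their sums overlapped, at 136 to 173 CPM in SAKI mice, against 110 to 152 CPM in WT mice. Their mean log2 CPM did not overlap (4.30 ± 0.14 in SAKI mice and 3.79 ± 0.19 in WT mice, SD, n = 3 each). Of single dendritic markers, Clec9a, a receptor of cross-presenting dendritic cells, separated upward (13.7 to 13.9 CPM in SAKI mice, against 2.36 to 4.02 CPM in WT mice) and Zbtb46 separated downward (-0.31 on the log2 scale). The groups overlapped for CD8 and cytotoxic markers, which summed to 107 to 117 CPM in SAKI mice, against 61.6 to 118 CPM in WT mice. They also overlapped for NK cell markers (13.4 to 18.0 CPM in SAKI mice, 10.5 to 14.6 CPM in WT mice) and for plasma cell markers (90.1 to 108 CPM in SAKI mice, 86.4 to 124 CPM in WT mice).

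Mature adipocyte markers had 6 of 6 below 0 and summed to 5702 to 6335 CPM in SAKI mice, against 7535 to 8915 CPM in WT mice, without overlap. Endothelial markers, which summed to 851 to 908 CPM in SAKI mice, against 923 to 964 CPM in WT mice, did not overlap either. Immediate early genes, which respond to handling of a tissue, had 13 of 14 below 0, with mean log2 CPM of 4.24 ± 0.22 in SAKI mice and 4.82 ± 0.50 in WT mice (SD, n = 3 each), and the groups overlapped. Whether these shifts contribute to the values of the 9 genes was not tested. Epithelial markers were nearly absent, and Epcam, the single marker tested, had 1.37 to 2.46 CPM in SAKI mice, against 0.195 to 4.39 CPM in WT mice.

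**Figure D5:**
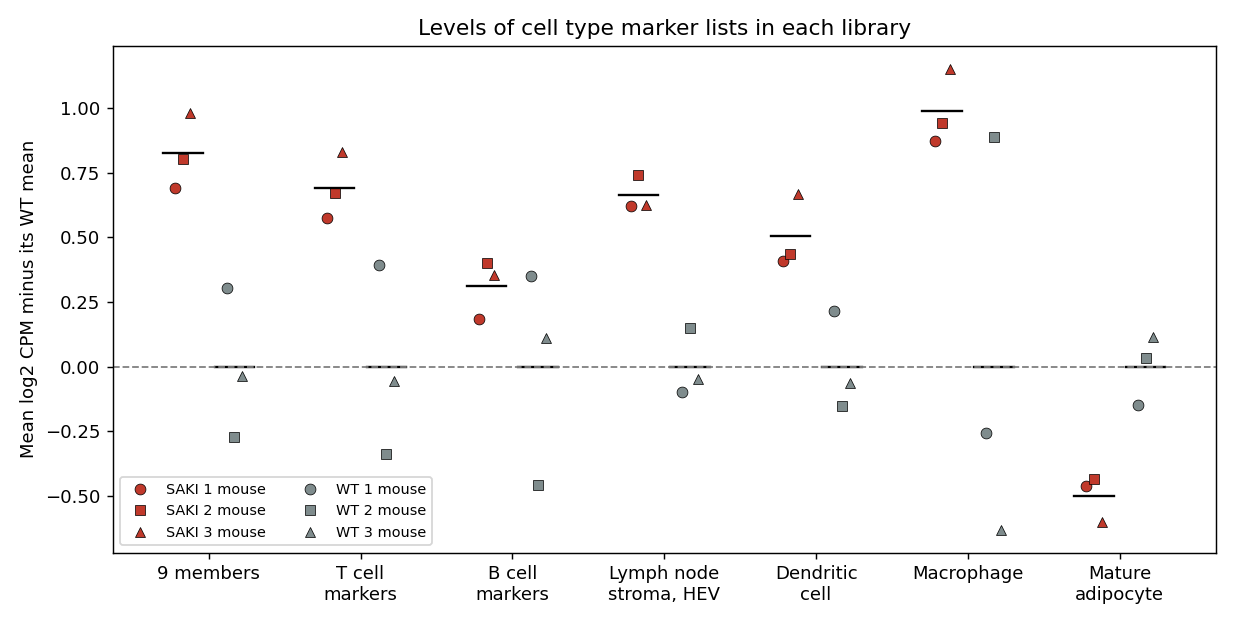
Mean log2 CPM of the 9 genes and of 6 marker lists in each library, minus the mean of the 3 WT libraries for that list, with 1 symbol per mouse for 3 SAKI mice (red) and 3 WT mice (grey) and a bar at each group's mean. On this mean of log values the 9 genes, T cell, dendritic cell and lymph node stroma lists separate upward (the summed CPM of the dendritic list overlaps), adipocyte markers separate downward, and B cell and macrophage lists overlap, with WT 2 lowest for B cells and highest of the WT mice for macrophages.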

How the data were processed

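Poly(A) RNA of IngWAT from 3 SAKI and 3 WT mice was sequenced, with groups and mice taken from the sample titles. The authors deposited raw counts per gene for each library, not normalized, and an FPKM table over all libraries, scaled by the authors to gene length and library size. Build GRCm38 and the tools StringTie 1.3.0, HISAT2 2.0.4 and Bowtie2 2.2.6 come from the submitters' processing notes, which give them no role. Whether the counting used strand, and with which tool and annotation, is not given in the sources used here. Mice are labelled as separate animals, no batch is recorded, and labels and methods name different RNA extraction reagents.

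The test was that of edgeR 4.0.16 under R 4.3.3 (filterByExpr defaults of 10 for the minimum count and 15 for the total, TMM factors, genotype as the only term, quasi-likelihood test, Benjamini-Hochberg adjustment over 15400 genes, adjusted p under 0.05). Standard errors are the log2 fold change divided by the root of F. The common biological coefficient of variation was 23.3%. Each of the 9 genes had 152 to 2040 counts per library. CPM are TMM-normalized, and log2 CPM used a prior count of 2. Gene names that had become dates (27 of them) were restored from the IDs. Positions are those of the files, and overlaps and exons are from GENCODE M21, which held 34267 of the 34745 gene IDs. Promoter sequences are from RefSeq (GRCm38.p6), limited to the 250 bases before the start, and the motifs were chosen with those sequences in view. Of the steps, only the edgeR fit was tried on simulated counts, in which no library was set apart as WT 2 was.

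The members and lists were chosen with earlier results of these data known. Named genes are Slc35d3, the 9 members, up to 4 genes of smallest p per list described (some are not reported here), and the 10 genes of nearest profile (predicted genes and variable, diversity and joining segments left out). Cd8a, Cd8b1, Epcam, Pou2f1, Ccl21a, Ccl19 and Fcamr were added after their values were seen. Alternatives were scaling by upper quartile or RLE, the tools limma-voom (limma 3.58.1) and DESeq2 1.42.0, no filter or a mean of at least 5 CPM, the replicate number as a block, the B cell marker mean as a covariate, each library left out, and limma on log2(FPKM + 1) or log2(FPKM + 0.1) with a filter (FPKM 1 or more in 3 or more libraries) or, for the first, none. Separation of the groups without WT 2 was added after seeing the data.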

Additional observations from a re-analysis of the deposited data

How the results depend on the processing

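In all 17 alternative fits the log2 fold change of each of the 9 genes stayed above 0, between 0.22 (Zap70 with the B cell marker mean) and 1.21 (Themis without WT 1). Of the 9 genes, 0 passed in edgeR as reported, 7 with DESeq2 and 4 with the B cell marker mean as a covariate, and 0 to 5 passed when each library was left out, the 5 being without WT 2. The count over all genes was 5 in edgeR as reported, 728 with DESeq2, 939 with the B cell marker mean, 8 with the low-count genes kept, 9 on FPKM values with a pseudocount of 1 or 0.1, and 1 to 2598 with each library left out (2598 without WT 2, 2 without SAKI 1 or SAKI 2, 1 without SAKI 3). Cd3d and Zap70 passed in 0 of the 17. With the replicate number as a block, 1 gene (0.00649% of those tested) and 0 of the 9 passed, with log2 fold changes of the 9 at 0.58 to 1.08. Deviations of same-numbered mice from their group means correlated at only 0.04 to 0.09 across genes, and mice did not correlate best with their own number. With so few mice per group this check cannot decide whether the mice were paired. Each of the 9 genes had at least 152 counts in every library, and the effect of depth on the calls was not tested.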
